A study of Mus musculus with 10 samples.

Results

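Promoter H3K27ac peaks found in WT cells alone are described here, with their genes and the other histone marks listed at the same places. The members were selected on measured peak calls. A member is an H3K27ac peak of the WT list that lies within 2500 bp of the transcription start site (TSS) of any protein-coding transcript and shares no base with an H3K27ac peak of the Delta list. There were 748 such WT-only peaks among 3892 promoter peaks and 4571 H3K27ac peaks in WT. The other 3144 promoter peaks, called shared, overlapped a Delta peak by at least 1 bp and serve as the comparison.

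The peaks come from ChIP-Rx of mCherry+ cells sorted from mouse embryoid bodies (EBs, aggregates of differentiating embryonic stem cells) at day 4. The WT line (genotype Scl wt) has an mCherry reporter inserted at 1 allele of *Scl*, and the Delta line (Scl d/d) was derived from it by deletion of the basic helix-loop-helix (bHLH) domain from both alleles. Both lines were grown from single sorted cells. Their strain labels run from C57Bl/6 X Sv129 to C57Bl/6 X Sv136 across the libraries, so the strain is uncertain. In addition, *Drosophila* S2 cells were mixed into every sample as a spike-in. There was 1 library per mark and genotype for H3K27ac, H3K4me3, H3K27me3 and H2AK119ub, so no difference below has a replicate check, and genotype, clone and library cannot be told apart.

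SCL (TAL1) is a bHLH transcription factor needed for blood to be specified from mesoderm and binds DNA with E proteins, LMO2, LDB1 and GATA factors. H3K27ac is laid down by p300 and CBP and marks active promoters and enhancers, while H3K4me3 marks promoters that are active or poised. The same lysine of H3 can instead carry H3K27me3, set by Polycomb repressive complex PRC2, and H2AK119ub is set by PRC1. A lysine cannot carry both modifications at once, so both marks listed at a promoter sit on different copies of H3.

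The labelled cells were checked against marker genes. Of 6 genes of haemangioblasts and their mesoderm (*Kdr*, *Etv2*, *Tal1*, *Lmo2*, *Gata2*, *Fli1*), 6 had H3K4me3 within 2500 bp of a TSS in both genotypes. Of these, 4 had H3K27ac in WT and 0 in Delta. Those 4 (*Tal1*, *Lmo2*, *Gata2*, *Fli1*) lie at WT-only peaks, so their lack of H3K27ac in Delta was selected by the rule and is no check. The cells were also sorted by a reporter at *Tal1*. The cardiomyocyte genes *Tnnt2* and *Myh6* had neither mark in either genotype. The pluripotency genes *Pou5f1*, *Nanog* and *Sox2*, the neural gene *Pax6* and the endoderm genes *Foxa2* and *Afp* had H3K27ac in neither. H3K4me3 did not separate these cell types, since *Sox2*, *Pax6* and *Foxa2* had it in both genotypes and *Pou5f1* in Delta. Bulk peak lists cannot tell fewer cells with a mark from less of the mark per cell. The lists carry no read depth.

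Sequences are given for 5 WT-only peaks at genes of blood and endothelium, chosen by fold enrichment among windows that hold no annotated untranslated region. They are shown because they span the range from CpG-rich to CpG-poor. All are on the plus strand of NCBIM37 (mm9) and are the whole peak or, for peaks over 300 bp, the 300 bp around its midpoint. Capitals mark matches on either strand to GATAA (a motif of GATA factors), to the E-box CAGCTG, to a second E-box, CAGATG, and to GGAAGT (a motif of ETS factors). The peak in an intron of *Erg* (chr16:95680218-95680480) holds 7 CpGs, and the one in *Hhex* (chr19:37509574-37509873) holds 45. The *Gata2* peak (chr6:88147109-88147297) holds 16, the centre of the longest *Egfl7* peak (chr2:26431945-26432244) 4 and that of *Fli1* (chr9:32348485-32348784) 33.
Erg: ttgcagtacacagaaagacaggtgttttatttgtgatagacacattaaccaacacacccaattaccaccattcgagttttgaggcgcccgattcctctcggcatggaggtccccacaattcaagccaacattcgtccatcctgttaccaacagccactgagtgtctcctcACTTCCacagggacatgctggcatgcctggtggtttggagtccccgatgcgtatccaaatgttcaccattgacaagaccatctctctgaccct
Hhex: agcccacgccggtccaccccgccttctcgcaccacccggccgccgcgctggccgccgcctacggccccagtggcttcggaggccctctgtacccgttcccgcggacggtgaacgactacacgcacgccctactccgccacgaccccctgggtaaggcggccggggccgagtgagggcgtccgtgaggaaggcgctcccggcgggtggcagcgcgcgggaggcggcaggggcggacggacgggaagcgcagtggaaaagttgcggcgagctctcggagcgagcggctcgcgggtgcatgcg
Gata2: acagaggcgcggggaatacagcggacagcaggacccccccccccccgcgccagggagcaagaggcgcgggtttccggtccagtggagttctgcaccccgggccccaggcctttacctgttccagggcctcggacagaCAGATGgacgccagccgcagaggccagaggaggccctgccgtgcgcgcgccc
Egfl7: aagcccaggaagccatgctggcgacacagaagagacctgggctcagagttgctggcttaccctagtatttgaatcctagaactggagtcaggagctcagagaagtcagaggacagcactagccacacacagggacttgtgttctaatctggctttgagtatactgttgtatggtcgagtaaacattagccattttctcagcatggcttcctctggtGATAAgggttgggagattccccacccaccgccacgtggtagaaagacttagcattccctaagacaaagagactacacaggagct
Fli1: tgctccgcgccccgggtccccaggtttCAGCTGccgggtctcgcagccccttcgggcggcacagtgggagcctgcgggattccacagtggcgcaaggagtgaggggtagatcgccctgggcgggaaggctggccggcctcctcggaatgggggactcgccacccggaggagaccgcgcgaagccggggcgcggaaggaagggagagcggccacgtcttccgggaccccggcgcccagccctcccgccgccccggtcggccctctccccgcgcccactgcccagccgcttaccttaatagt

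WT-only promoter peaks were short. Their median length was 336 bp (95% interval of the median 315 to 354 bp, n = 748), against 592 bp (570 to 612 bp, n = 3144) for shared peaks. The middle 50% spanned 230 to 567 bp, and 45 peaks (6.02%) reached 1000 bp, against 721 shared peaks (22.9%). The median fold enrichment over input was 3.96 (3.90 to 3.99) in WT-only and 4.25 (4.21 to 4.28) in shared peaks. These values are from the measurement that chose the members and are given as a description. The share of promoter peaks without a counterpart fell from 35.4% among the 973 shortest peaks to 6.99% among the 973 longest ones. By fold enrichment it went from 25.5% in the 973 lowest peaks to 8.94% in the 973 highest.

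**Figure D1:**
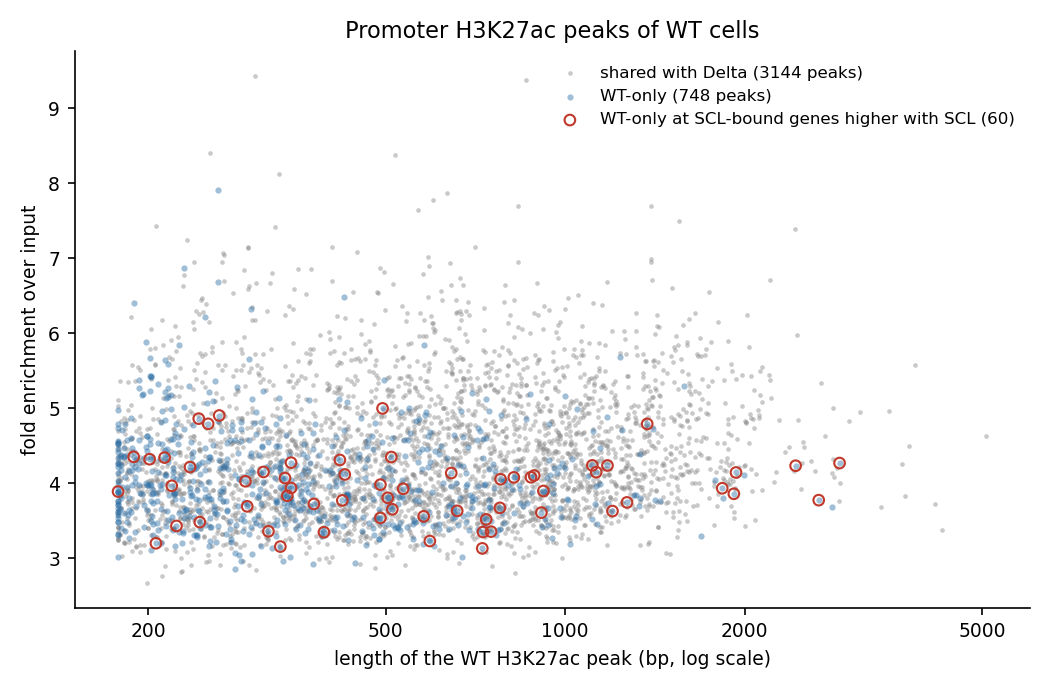
Each point is a promoter H3K27ac peak of WT cells, placed by its length (x axis, bp, log scale) and its fold enrichment over input (y axis). The 748 WT-only peaks crowd at the short end, and the 60 that lie at genes listed by the study as bound by SCL and higher with SCL (rings) are spread over the whole range of lengths.

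Peaks away from promoters lacked a counterpart more often. Among all 4571 WT peaks 26.5% had none, among promoter peaks 19.2% (95% Wilson interval 18.01 to 20.5%) and among the 679 others 68.2% (64.6 to 71.6%). The Delta list was not the shorter one. It held 5269 peaks, of which 4509 were at promoters and 1370 of those (30.4%) lacked a counterpart in WT. The lowest fold enrichment in the Delta list was 2.71, and 0 of the 748 WT-only peaks were below it. The whole WT list began at 2.68, so there was little room below 2.71, and the libraries are not on 1 scale. The lowest −log10 p of the Delta list was 4.46. No WT peak could fall below that value, because the whole WT list began at 4.50. A WT-only peak means a region that was listed in WT and not in Delta, and not a measured absence of acetylation.

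At the edges of the rule, the WT-only peak at *Atxn10* touched a Delta peak with 0 bp between them, and the peak at *Cflar* lay 1 bp from one. The shared peaks with the least overlap, at *Pcbd2* and *Prdm6*, shared 2 bp and 7 bp. In all, 50 WT-only peaks (6.68%) had a Delta peak within 1000 bp. The members farthest from a TSS were at *Myh9* (2439 bp) and *Asb6* (2260 bp), and the nearest peaks beyond the limit lay 2569 bp from *Csnk1e* and 2623 bp from *1110020G09Rik*.

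WT-only peaks contained a TSS less often than shared peaks, in 239 of 748 (32.0%, 95% Wilson interval 28.7 to 35.4%) against 1637 of 3144 (52.1%, 50.3 to 53.8%). More of them lay over 500 bp from any TSS, 60 (8.02%, 6.28 to 10.2%) against 85 (2.70%, 2.19 to 3.33%). The midpoint of 340 (45.5%) was in an intron, that of 156 (20.9%) in an annotated UTR, that of 122 (16.3%) in a coding exon and that of 106 (14.2%) between genes. The rest lay in exons of other transcripts. The share of promoter peaks that were WT-only ranged from 11.4% on chromosome 1 (32 of 280, 8.21 to 15.7%) to 34.6% on the X chromosome (9 of 26, 19.4 to 53.8%).

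To ask which genes lie at these peaks, every protein-coding gene with a TSS within 2500 bp was counted. The 748 peaks reached 859 genes. Of these, 766 had no Delta H3K27ac at any TSS, while 93 kept a Delta peak elsewhere in the window. Over the 22359 protein-coding genes, 768 (3.43%) had H3K27ac at a TSS in WT alone, 1424 (6.37%) in Delta alone and 3672 in both. Most WT-only peaks (620) reached 1 gene. *Egfl7* had 4 WT-only peaks, *Clcn3* and *Kdm2b* had 3 each, and 17 genes had at least 2.

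Regulators of blood were found at WT-only peaks. Of 25 regulators matched, 9 had H3K27ac at the TSS in WT alone, 4 in both genotypes, 1 in Delta alone and 11 in neither. That is 36.0% (95% Wilson interval 20.2 to 55.5%), beside 3.43% of all genes. The 9 were *Erg*, *Fli1*, *Gata2*, *Hhex*, *Lmo2*, *Lyl1*, *Nfe2*, *Sfpi1* and *Tal1*. The 1 in Delta alone was *Runx1*, with 721 bp of H3K27ac (fold enrichment 4.03) in Delta and none in WT. Of 21 entries for 20 erythroid and blood effectors, 3 were marked in WT alone (*Gypc*, *Itga2b*, *Tfrc*). *Gypc* had a second entry, marked in neither genotype. Of 28 endothelial genes, 4 were marked in WT alone (*Aplnr*, *Egfl7*, *Ets2*, *S1pr1*). In Delta alone, 1 of the 21 (*Abcb10*) and 2 of the 28 (*Eng*, *Notch1*) were marked. None of the endothelial genes was marked in both genotypes. The lists were drawn up with earlier results of these data known and include genes the study discussed, so their counts are a description.

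**Figure D2:**
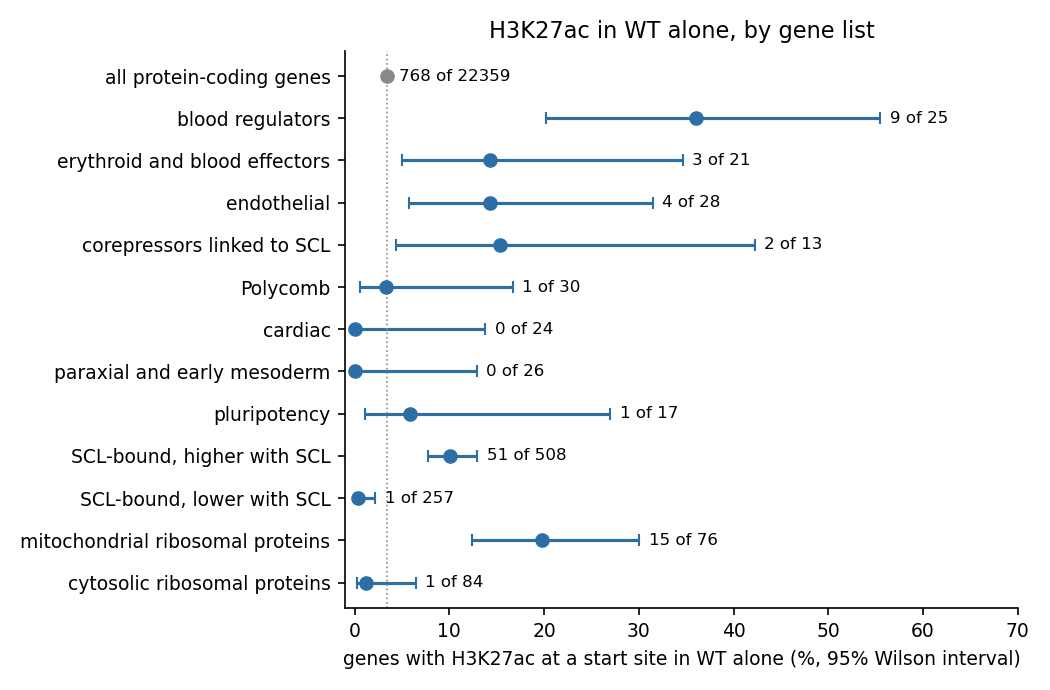
Points give the percentage of each list's genes (x axis) with H3K27ac within 2500 bp of a TSS in WT and not in Delta, and bars are 95% Wilson intervals, with the counts beside them. Blood regulators stand at 36.0% and all protein-coding genes, marked by the dotted line, at 3.43%. Cardiac and mesoderm genes are at 0, with intervals that reach past that line.

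Lists of other lineages had few or no genes marked in WT alone, beside 3.43% of all protein-coding genes (6.37% in Delta alone). Cardiac genes had H3K27ac in WT alone at 0 of 24 and in Delta alone at 3, and paraxial and early mesoderm genes at 0 of 26 and at 4. A WT-only peak of 178 bp was found at *Zeb2*, whose TSSs had H3K27ac in both genotypes. Neural and endoderm lists had 0 of 13 and 0 of 10 genes in WT alone. Of 17 pluripotency genes, *Klf2*, which also acts in endothelium, was marked in WT alone, and 2 were marked in Delta alone (*Klf4*, *Lin28a*). The Polycomb list had 1 of 30 genes in WT alone, *Pcgf5*, a subunit of non-canonical PRC1, and 16 in both. It had 2 in Delta alone (*Rbbp7*, *Yaf2*). *Kdm2b*, which brings PRC1 to CpG islands, had 3 WT-only peaks but kept other H3K27ac peaks in Delta. Among 13 genes of corepressors linked to SCL, *Pcgf5* and *Cbfa2t3* (ETO2) were marked in WT alone, 2 in Delta alone (*Rcor1*, *Sin3a*) and 6 in both.

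The study's own lists give a measurement from other samples. These were FLK1+ cells of EBs at an earlier time than day 4, from other lines and with another *Scl* mutation, not sorted mCherry+ cells. Genes named there as bound by SCL and with more mRNA in *Scl*+/+ than in *Scl*-/- cells numbered 514, of which 508 genes were matched here. H3K27ac was at the TSS in WT alone at 51 of the 508 (10.04%, 95% Wilson interval 7.72 to 13.0%), in both at 63 and in Delta alone at 42 (8.27%). Of 257 matched genes that were bound by SCL and had less mRNA with it, 1 was marked in WT alone (*Car2*, carbonic anhydrase 2), 21 in both and 27 in Delta alone (10.5%). Counted by peaks, 60 of 748 WT-only peaks (8.02%, 6.28 to 10.2%) lay at genes higher with SCL, against 67 of 3144 shared peaks (2.13%, 1.68 to 2.70%) and 48 of 1370 Delta-only promoter peaks (3.50%, 2.65 to 4.61%). For genes lower with SCL the same counts were 1, 21 and 30 peaks. With both H3K27ac lists held to a −log10 q of at least 3, the share of WT-only peaks at genes higher with SCL was 4.35% (3.17 to 5.94%). No share of shared peaks was recorded at that setting, so the classes were not compared there.

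Long WT-only peaks held more of these genes. Of the 45 WT-only peaks of at least 1000 bp, 12 (26.7%, 16.0 to 41.0%) lay at a gene higher with SCL, against 48 of 703 shorter ones (6.83%, 5.19 to 8.94%). Among shared peaks the corresponding shares were 2.91% (21 of 721) and 1.90% (46 of 2423). Peaks over 500 bp from a TSS showed it too, with 11 of 60 (18.3%, 10.6 to 29.9%), against 49 of 688 (7.12%, 5.43 to 9.29%) nearer to one.

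Long WT-only peaks were at *Egfl7* (2883 bp), *Dgkz* with *Gm9821* (2802 bp), *B230312A22Rik* (2660 bp), *Epb4.1* with *Gm10300* (2433 bp), *Gypc* (1933 bp), *Abi3* with *Gngt2* (1917 bp) and *Krt79* (1840 bp). *Egfl7* encodes a protein secreted by endothelium, *Epb4.1* the red cell membrane protein 4.1 and *Gypc* glycophorin C. H3K4me3 overlapped 4 of these 7 in WT and 1 in Delta (*B230312A22Rik*). They were of moderate height, with fold enrichments of 3.68 to 4.27.

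The tallest WT-only peaks were of another kind. They lay at *Eapp* (fold enrichment 7.91), *Ing3* (6.87), *Pole* with *Pxmp2* (6.68), *A230046K03Rik* (6.49), *0610011L14Rik* (6.40), *Ilf2* (6.32), *Scfd1* (6.22) and *Cluap1* with *1700037C18Rik* (5.88). *Pole* encodes the catalytic subunit of DNA polymerase epsilon, *Ing3* a subunit of a histone acetyltransferase complex, *Ilf2* an RNA-binding protein and *Scfd1* a factor of vesicle transport. All 8 were 189 to 426 bp long and overlapped H3K4me3 in WT. In Delta, 7 of the 8 kept H3K4me3, and the exception was *Eapp*, whose H3K4me3 peak of 1498 bp (fold enrichment 7.43) was in WT alone.

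Housekeeping families made up part of the WT-only set. Mitochondrial ribosomal protein genes were marked in WT alone at 15 of 76 (19.7%, 12.3 to 30.04%), but also in Delta alone at 16, with 20 in both. Their WT-only peaks had fold enrichments of 3.33 (*Mrps21*) to 5.19 (*Mrps12*). Genes named *Eif*, for translation initiation factors, had 8 of 58 in WT alone, 4 in Delta alone and 32 in both. Complex I genes named *Nduf* had 5, 3 and 12 of 43. Cytosolic ribosomal protein genes were almost entirely shared, with 72 of 84 in both, 1 in WT alone (*Rplp1*) and 3 in Delta alone. Genes of hnRNPs had 17 of 18 in both and 0 in WT alone, and 0 of 40 *Hox* genes had H3K27ac in either genotype.

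Values at the blood regulators were as follows. *Erg*, an ETS factor, had the tallest of these peaks, with a fold enrichment of 4.90 over 263 bp, in an intron 430 bp from the nearest TSS. *Hhex*, a homeobox factor of haemangioblasts, had a peak of 545 bp (fold enrichment 4.57) and *Gata2*, a GATA factor of early blood, a peak of 189 bp (4.35). *Nfe2*, a bZIP factor of erythroid cells and megakaryocytes, had peaks of 201 bp (4.32) and 1269 bp (3.75). No H3K27ac peak in Delta came within 10 kb of any of them.

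At *Tal1* itself, on chromosome 4 from 114728859 to 114730691, the WT-only peak was 1833 bp long with a fold enrichment of 3.93. *Tal1* is the locus that was engineered in both lines. *Lmo2*, the LIM-domain partner of SCL, had a peak of 876 bp (4.08) at its TSS, and *Lyl1*, the bHLH factor closest to SCL, a peak of 887 bp (4.104). The peak at *Fli1*, an ETS factor, was 820 bp long (4.08), and the one at *Sfpi1* (PU.1) 729 bp (3.54). *Sfpi1* was the weakest of them, with a −log10 q of 1.45, and had no H3K4me3 in either genotype.

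Effector genes followed. *Tfrc*, the transferrin receptor, had a peak of 249 bp (fold enrichment 4.47), *Gypc* peaks of 213 bp (4.34) and 1933 bp (4.14), and *Itga2b* (CD41, the first surface marker of blood commitment) a peak of 777 bp (3.67). At *Egfl7* the peaks were 2883, 219, 504 and 318 bp long, with fold enrichments of 4.27, 3.97, 3.81 and 3.36. The receptors *S1pr1* and *Aplnr* had peaks of 379 bp (3.73) and 513 bp (3.65), and *Ets2* had 751 bp (3.36). *Pcgf5* had 342 bp (3.84) and *Cbfa2t3* 593 bp (3.23).

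Among the SCL-bound genes with more mRNA in SCL-competent cells, the tallest WT-only peaks were at *Usp40* (4.999), *Erg*, *E2f2* (4.86), *Fam110c* (4.79), *F2r* (4.79), *Gata2*, *Cmas* (4.35), *Gypc*, *Nfe2* and *Art4* (4.31). *E2f2* encodes an E2F factor of the cell cycle, *F2r* a thrombin receptor and *Art4* a blood group antigen. The *F2r* peak was the longest of these 10, at 1372 bp.

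The other 6 peak lists were then compared between WT-only and shared peaks. H3K4me3 overlapped nearly all of both classes. In WT it overlapped 713 of 748 WT-only peaks (95.3%, 95% Wilson interval 93.6 to 96.6%) and 3131 of 3144 shared peaks (99.6%, 99.3 to 99.8%). The difference was −4.27 percentage points (Newcombe interval −6.03 to −2.94). In Delta it overlapped 700 (93.6%) and 3126 (99.4%), a difference of −5.84 points (−7.84 to −4.27). H3K27ac in WT alone seldom came with H3K4me3 in WT alone. This was so at 14 WT-only peaks (1.87%), against 7 shared peaks (0.22%), and over all promoter peaks the share was 0.54%.

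**Figure D3:**
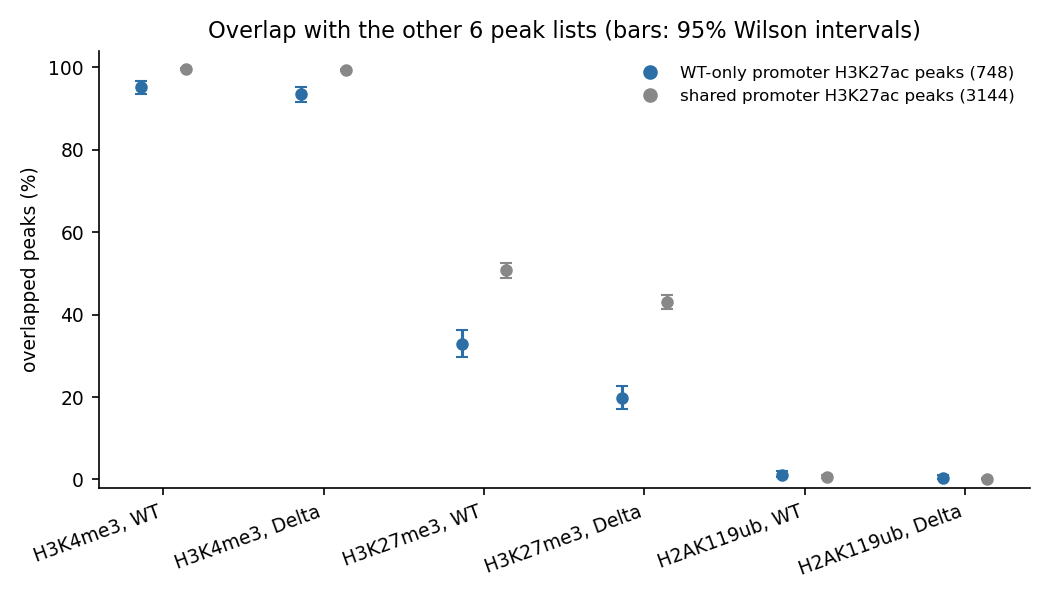
Points give the percentage of WT-only and of shared promoter H3K27ac peaks (y axis) that are overlapped by each of the other 6 peak lists, and bars are 95% Wilson intervals. H3K4me3 overlaps over 93% of both classes, H3K27me3 overlaps fewer WT-only than shared peaks in both genotypes, and H2AK119ub is near 0.

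The 14 peaks that had H3K4me3 in WT alone included *Eapp*, *Itga2b*, 2 of the peaks at *Egfl7*, and *Arap3*. These names were picked after their values were seen. A further 34 WT-only peaks had H3K4me3 in neither genotype, of which 17 lay over 500 bp from any TSS and 13 at a gene higher with SCL.

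Where H3K4me3 was listed in both genotypes, its fold enrichment was lower in Delta. The median log2 ratio of Delta over WT was −0.35 (−0.37 to −0.32) at 699 WT-only peaks and −0.23 (−0.24 to −0.22) at 3124 shared peaks. The medians of fold enrichment were 8.75 in WT and 6.74 in Delta at WT-only peaks, and 9.03 and 7.74 at shared peaks. The ratio was below 0 at 91.3% and 81.0% of them. The 2 libraries are not on 1 scale, so the level of either ratio has no meaning of its own, but the intervals of the 2 classes did not overlap. The length of H3K4me3 had a median log2 ratio of −0.18 (−0.20 to −0.15) at WT-only and −0.13 (−0.14 to −0.12) at shared peaks. At WT-only peaks near genes higher with SCL it was −0.45 (−0.55 to −0.28, n = 42), against −0.16 (−0.19 to −0.14, n = 657) at the other WT-only peaks. For fold enrichment the medians were −0.40 (−0.49 to −0.28) and −0.35 (−0.37 to −0.31), and these intervals overlapped.

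H3K27me3 overlapped fewer WT-only than shared peaks. In WT it was at 246 (32.9%, 29.6 to 36.3%) against 1595 (50.7%, 49.0 to 52.5%), a difference of −17.8 points (−21.6 to −14.0). In Delta it was at 148 (19.8%, 17.1 to 22.8%) against 1356 (43.1%, 41.4 to 44.9%), a difference of −23.3 points (−26.6 to −19.9). The difference moved with peak length. Among peaks no longer than the median WT-only peak it was −1.996 points in WT (−7.68 to 3.90), which includes 0, and in Delta −13.5 points (−18.5 to −8.21).

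Between genotypes, H3K27me3 was listed in both at 102 WT-only peaks, in WT alone at 144 (19.3%), in Delta alone at 46 (6.15%) and in neither at 456. At all promoter peaks H3K27me3 was in WT alone at 19.9% and in Delta alone at 11.2%. Of the WT-only peaks with H3K27me3 in WT, 41.5% (35.5 to 47.7%) had it in Delta too, against 60.5% (58.1 to 62.9%) of shared peaks, a difference of −19.0 points (−25.5 to −12.3). Few places with H3K27ac in WT alone thus had H3K27me3 in Delta alone.

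At most of the 46 peaks with H3K27me3 in Delta alone, the Delta H3K27me3 peak was short, with a median length of 361 bp. At 5 it was over 2000 bp. The longest by far was at *Lyl1*, where an H3K27me3 peak of 18494 bp (fold enrichment 7.32) covered the place of the WT-only H3K27ac peak in Delta, and H2AK119ub was listed there in Delta as well. In WT, H3K27me3 came near this TSS but did not reach the H3K27ac peak. The next were at *Pde4dip* (3270 bp), *Tmem189* (2370 bp), *C530008M17Rik* with *Gm10430* (2193 bp) and *Dcaf5* (2149 bp).

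H2AK119ub was rare at both classes. It overlapped 8 WT-only peaks in WT (1.07%, 0.54 to 2.10%) and 20 shared peaks (0.64%, 0.41 to 0.98%), a difference of 0.43 points (−0.20 to 1.48). In Delta it overlapped 3 and 4 (difference 0.27 points, −0.06 to 1.05). A difference was not detectable at these counts.

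The marks were also counted over whole promoter windows. The covered length of each mark within 2500 bp of a gene's TSSs was compared between genotypes. These are lengths of peak calls without spike-in scaling and not amounts of a mark. In the study's spike-in scaled signal, H3K27me3 at TSSs was lower in Delta genome-wide. Among SCL-bound genes that changed in mRNA, it was lower at those repressed by SCL and, to a lesser extent, at those activated by it. A western blot there also showed less H3K27me3. The study's H3K27ac and H3K4me3 signals at TSSs did not depend on SCL. Of the 9 blood regulators with H3K27ac in WT alone, 8 had H3K4me3 in WT, and at all 8 its covered length was shorter in Delta. Shorter H3K4me3 in Delta was general, at 587 of the 768 genes with H3K27ac in WT alone (longer at 165) and at 2703 of the 3672 with H3K27ac in both (longer at 957). H3K27me3 was longer in Delta at 7 of the 9 and shorter at 1 (*Erg*). Among all 768 genes with H3K27ac in WT alone H3K27me3 was longer at 140 and shorter at 229, and among the 3672 with H3K27ac in both, longer at 1017 and shorter at 1459.

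At *Tal1* the H3K27ac length was 1833 bp in WT and 0 in Delta, H3K4me3 6092 and 4176 bp, and H3K27me3 1800 and 4785 bp. At *Hhex*, H3K4me3 went from 5251 to 2564 bp and H3K27me3 from 4742 to 8187 bp. At *Nfe2*, H3K4me3 of 2075 bp was listed in WT alone and H3K27me3 of 2442 bp in Delta alone. Each of these 3 genes had a shorter covered length of H3K4me3 and a longer one of H3K27me3 in Delta. Their lack of H3K27ac in Delta was set by the selection. *Fli1* had 5001 and 3823 bp of H3K4me3 and 2942 and 5001 bp of H3K27me3, which then filled its window. *Gata2* kept 5746 of 6180 bp of H3K4me3 while H3K27me3 went from 7106 to 9774 bp, and H2AK119ub from 5420 to 3731 bp.

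The corepressor gene *Cbfa2t3* went from 4641 to 1528 bp of H3K4me3 and from 2922 to 5623 bp of H3K27me3. Its H2AK119ub was shorter in Delta, at 1646 bp against 3926 bp. *Egfl7* differed in that no H3K27me3 was listed in either genotype, while H3K4me3 fell from 3981 to 874 bp. *Gypc*, *Aplnr* and *S1pr1* also had none. *Tfrc* and *Ets2* had H3K27me3 of 384 and 879 bp in WT and none in Delta. H3K4me3 was shorter in Delta at 17 of the 18 blood, endothelial and corepressor genes with H3K27ac in WT alone, the other being *Sfpi1*, beside 587 of all 768 such genes. H3K27me3 was longer at 10 of the 18, shorter at 3 and equal at 5, beside 140 longer and 229 shorter of all 768.

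**Figure D4:**
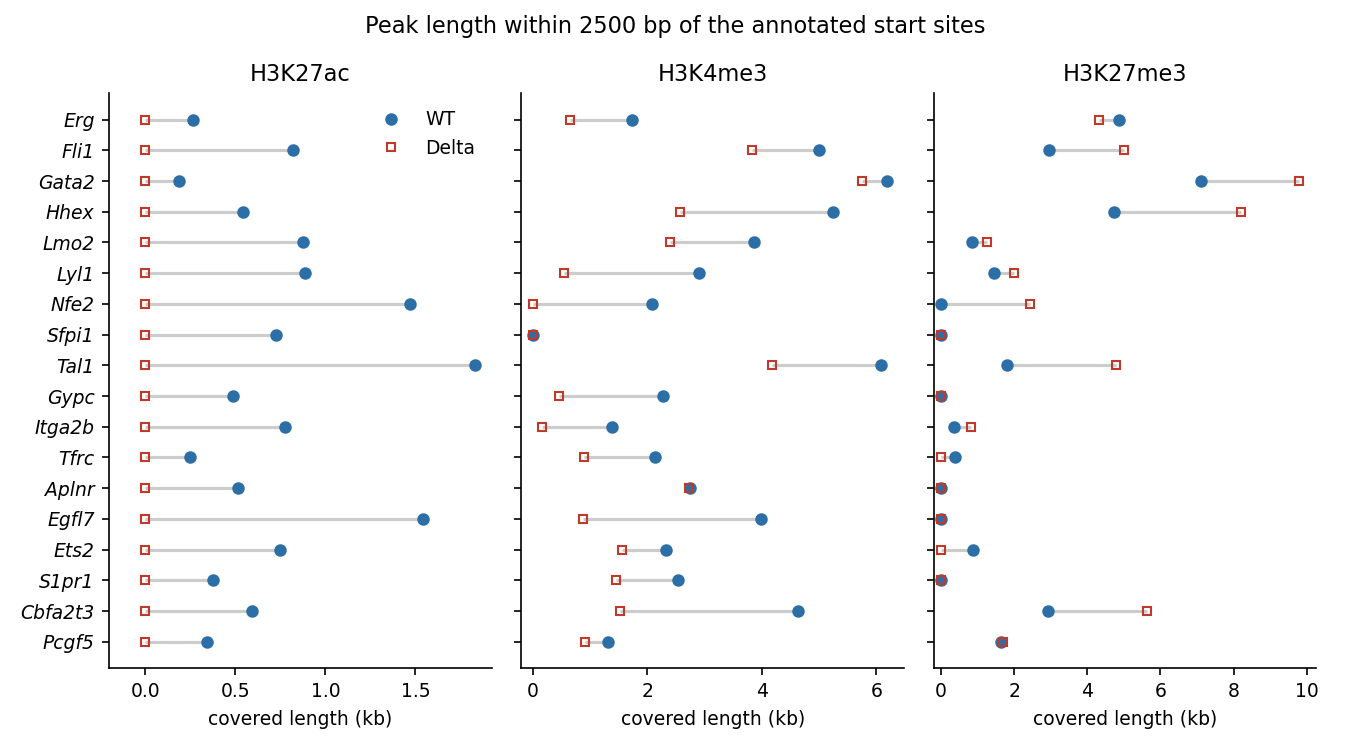
Covered length (x axes, kb) of H3K27ac, H3K4me3 and H3K27me3 within 2500 bp of the annotated TSSs of 18 genes of the blood, endothelial and corepressor lists with H3K27ac in WT alone, 1 gene per row, filled circles WT and open squares Delta. H3K4me3 is shorter in Delta at 17 of 18 genes (587 of all 768 with H3K27ac in WT alone). H3K27me3 is longer at 10, among them *Tal1*, *Hhex*, *Nfe2* and *Cbfa2t3*, and shorter at 3 (140 and 229 of all 768).

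The longer list, which shares genes with those above, gave like counts. At the 51 SCL-bound genes with more mRNA in SCL-competent cells and H3K27ac in WT alone, H3K4me3 was shorter in Delta at 43 and longer at 4, beside 587 and 165 of all 768, with a median difference of −497 bp (−829 to −323 bp). Over all 768 genes with H3K27ac in WT alone the median was −206 bp (−228 to −166 bp), and over the 3672 with H3K27ac in both −178 bp (−187 to −163 bp). H3K27me3 at the 51 was longer in Delta at 24 and shorter at 7, beside 140 and 229 of all 768. At the 63 genes of that list with H3K27ac in both genotypes it was longer at 22 and shorter at 31.

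The sequence under the peaks was compared in windows of 300 bp around the midpoints. WT-only peaks had a median GC content of 65.0% (64.3 to 65.7%), shared peaks 69.0% (69.0 to 69.7%) and windows at 45961 protein-coding TSSs 58.7%. The median ratio of observed to expected CpGs was 0.80 (0.78 to 0.82), 0.89 (0.89 to 0.90) and 0.59. Windows with a ratio under 0.5, which are CpG-poor, made up 14.8% of WT-only peaks (111, 12.5 to 17.6%) and 4.04% of shared peaks (127, 3.41 to 4.79%). At genes higher with SCL they made up 40.0% of WT-only (24 of 60, 28.6 to 52.6%) and 7.46% of shared peaks (5 of 67, 3.23 to 16.3%). Among peaks of at least 1000 bp they made up 42.2% of WT-only (19 of 45, 29.0 to 56.7%) and 5.41% of shared peaks (39 of 721, 3.98 to 7.31%).

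Motifs were searched on both strands. GATAA, the core of the GATA factor motif, was in 112 WT-only windows (15.0%, 12.6 to 17.7%) and 293 shared windows (9.32%, 8.35 to 10.4%), a difference of 5.65 points (3.05 to 8.56), beside 19.4% of all TSS windows. AGATAA was in 6.15% and 2.35%, a difference of 3.80 points (2.18 to 5.81), beside 8.20%. All AGATAA matches are also GATAA matches. In WT-only peaks of at least 1000 bp GATAA was in 13 of 45 windows (28.9%, 17.7 to 43.4%), against 67 of 721 (9.29%, 7.38 to 11.6%) of the long shared ones. GC content differed between the classes as well, and its part in the motif counts was not tested. With both H3K27ac lists held to a −log10 q of at least 3, the difference for GATAA was 1.92 points (−0.48 to 4.53), which includes 0. The E-box CAGCTG was in 12.4% of WT-only and 11.7% of shared windows (difference 0.70 points, −1.77 to 3.47), beside 17.6% of all TSS windows. The E-box CAGATG was in 8.96% and 6.93% (2.02 points, −0.05 to 4.43), beside 14.5%.

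The pair of CTG and GATA 7 or 8 bases apart, the composite arrangement of SCL complexes, was in 2.54% of WT-only and 2.04% of shared windows (difference 0.50 points, −0.56 to 1.96), beside 3.91% of all TSS windows. GGGCGG, the GC box of Sp factors, was in fewer WT-only windows, 55.1% against 67.5% (difference −12.4 points, −16.3 to −8.51), beside 45.3% of all. AAGATGG, the core of the YY1 motif, was in 4.68% against 8.11% (−3.43 points, −5.07 to −1.45), beside 7.18%. The interval of the difference included 0 for the ETS motif GGAAGT (22.8% of all TSS windows), for CCAAT, the box bound by NF-Y (33.1%), for the CREB site TGACGTCA (1.95%) and for the AP-1 site TGAGTCA (3.90%).

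**Figure D5:**
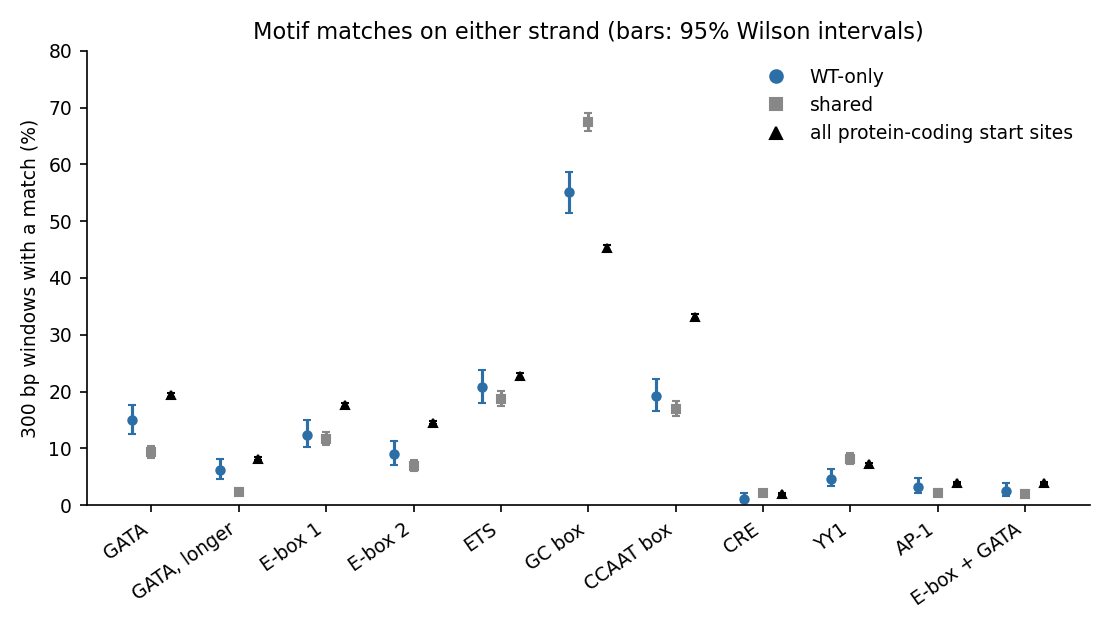
Points give the percentage of 300 bp windows (y axis) with a match to each of 11 motifs (x axis) for WT-only peaks, shared peaks and all protein-coding TSSs, with 95% Wilson intervals. The GATA motifs are more frequent in WT-only than in shared peaks, and the GC box and the YY1 motif less frequent.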

How the data were processed

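The study states alignment to mm9 and dm3 with Bowtie in a pipeline that trims adaptors and filters duplicates, and broad peaks were called in each ChIP library by the authors with MACS2 2.0.10 against the input of the same genotype. Spike-in scaling was stated for signal densities, not for peak calls. The deposited lists hold, per peak, a fold enrichment (a ratio), a −log10 p-value, a −log10 q-value and a score made by the authors, and the score was not used. The largest q-value in the H3K27ac lists was 0.0474. Read totals and the 2 inputs were not used here.

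The members and gene lists were chosen with earlier results of these data known. TSSs of 22359 protein-coding genes came from GENCODE M1, on the same build as the files, and 13 mitochondrial genes were left out. No peak ran past its chromosome end. A counterpart needed 1 bp of overlap. Shares have 95% Wilson intervals, differences of shares 95% Newcombe intervals, and medians exact binomial intervals. They cover counting error only, since peaks are not replicates and neighbours are not independent. A difference was stated where its interval leaves out 0. Lists of genes higher and lower with SCL use names from the study, matched by symbol or RefSeq synonym (GRCm38.p6, names only). Named peaks were the 8 tallest, the 8 longest, those at genes of 8 lists, the 10 tallest at genes higher and up to 5 at genes lower with SCL, the 5 with the longest H3K27me3 in Delta alone, and those at the edges of the rule. Of the longest, 1 is not reported here.

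Overlap code recovered 200 of 200 peaks removed from a copy of the WT list, and counts differed by 0 from bedtools 2.31.1. Python 3.11.15, numpy 2.4.6 and pandas 2.3.3 were used.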

Additional observations from a re-analysis of the deposited data

How the results depend on the processing

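No paired analysis was possible because each mark had 1 library in each genotype. The share of promoter H3K27ac peaks that were WT-only moved most with the peak threshold: 32.3% (851 peaks) with both H3K27ac lists limited to −log10 q of 3 or more, and 12.7% (335 peaks) with only the WT list so limited. It was 31.7% (1235 peaks) where shared needed 50% coverage and 17.9% (698 peaks) where no Delta peak could lie within 1000 bp. Joining peaks, a TSS distance of 1000 bp and leaving out chromosomes 1 and 8 kept it at 18.6 to 19.9%. The number of genes with H3K27ac in WT alone was 735 at a TSS distance of 1000 bp and 948 at the stricter q. The differences for H3K4me3 in both genotypes and for H3K27me3 in Delta kept their sign and left out 0 in all 7 alternatives. That for H3K27me3 in WT did so in 6, and among short peaks it was −1.996 points. With the other lists limited in that way, the H3K27me3 differences were −8.21 points in WT and −9.16 points in Delta. For H2AK119ub in Delta the difference was −0.0318 points with the other lists so limited, 0.41 points with both H3K27ac lists so limited and 0.54 points with windows of 500 bp on each side of the midpoint, and the intervals of the latter pair left out 0 on 4 and 5 WT-only peaks. The alternatives for the share at genes higher with SCL, H3K4me3 fold enrichment and GATAA were chosen after seeing the data. The share was 4.35% with both H3K27ac lists at the stricter q and 4.53% among short peaks, without a recorded share of shared peaks at either setting. The cause of these shifts was not tested.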
